A study of Gallus gallus with 6 samples.

Results

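The genes described here encode protease inhibitors of the serpin, Kazal, TIMP, WAP and type 2 cystatin families in the ileum of male Taiping chickens aged 2 months. They were chosen by name: every row of the expression table whose symbol starts with SERPIN, SPINK, TIMP or WFDC, or with CST followed by a digit. The rule found 25 of the 17623 genes in the table, 24 with Ensembl identifiers and 1 assembled locus. Of these, 19 had an FPKM (a fragment count divided by transcript length and library depth) of at least 1 in either group, and the other 6 are listed as not expressed. The MP group was 3 birds given 2 mL of probiotic per litre of drinking water, and the CT group was 3 birds on the corn and soybean basal diet alone. The labels name no strains for the probiotic, and both groups ate the same basal diet. The authors deposited 1 mean over 3 libraries for each group and gene. The differences below therefore have no replicate check, and no p-value is given. Mean counts summed to 15928865 per library in MP and 17150865 in CT.

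Protease inhibitors set how far and how long proteases act once these have been released. Serpins offer the protease a mobile loop and trap it in a covalent complex, although several members of the family inhibit nothing and serve as chaperones or signals. Kazal and WAP domains block serine proteases by occupying the active site, cystatins do the same to cysteine cathepsins, and TIMPs cap the zinc of matrix metalloproteases. In the gut wall these proteins come from many sources, among them the epithelium, leukocytes, and the stroma beneath it.

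Of the 19 expressed inhibitors, 17 were lower and 2 higher in the MP mean than in the CT mean (16 and 3 with median-of-ratios scaling, which turned SERPINB6), with a median of -0.28 on the log2(FPKM + 1) scale. Over all 12828 genes at the same minimum the median was -0.07, and 62.2% were lower and 37.7% higher at any size. The share higher was 50% with median-of-ratios scaling and 30.1% with equal FPKM totals. On that scale, which understates low genes, 3 inhibitors lay past 1.5-fold on the lower side (SPINK9, SERPINF1 and SERPINH1) and 0 on the higher side. Of all genes 1.97% and 2.87% lay there. At 2-fold on that scale 1 inhibitor was lower (SPINK9) and 0 higher, against 0.32% and 0.803% of all genes. By the depth-scaled count ratio of MP to CT, the low genes SERPINI1 (0.653), SERPINB10 (0.640) and SERPINA10 (2.17) were past 1.5-fold as well. Among the 19, 16 lay below the median difference of all genes and 13 below its lower quartile of -0.21. SERPINA10 reached FPKM 1 in MP only and SERPINB10 in CT only, so the minimum fixed the direction of each. The split of all genes past 1.5-fold depended on the scaling: 59.3% of them were higher in MP as deposited, 71.7% with median-of-ratios scaling and 46.85% with equal FPKM totals.

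**Figure D1:**
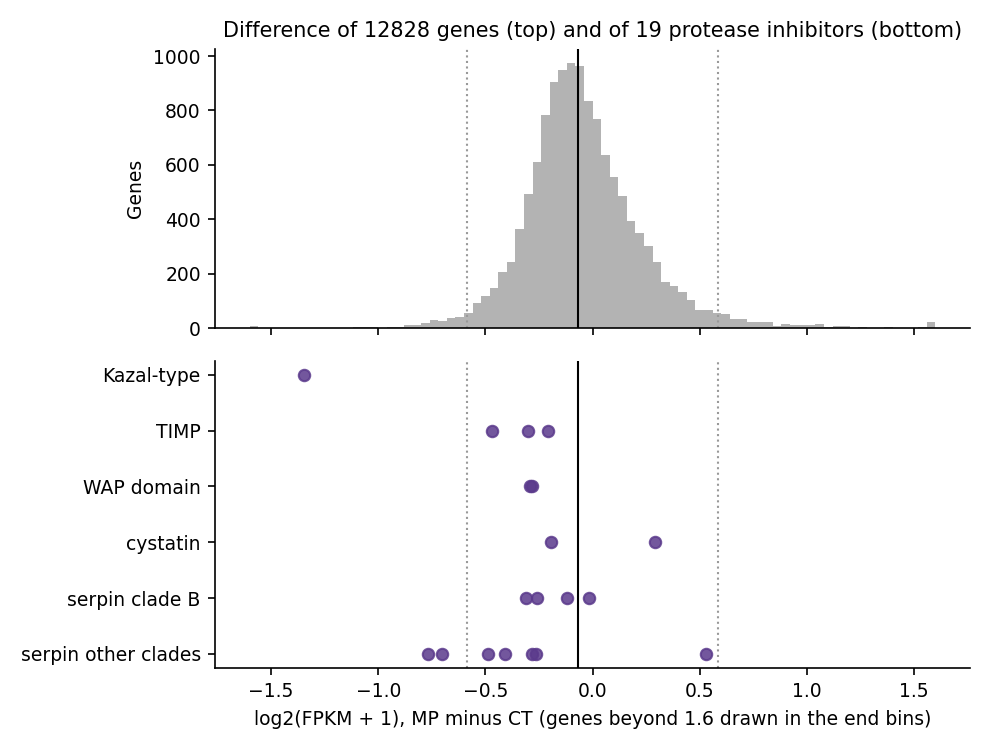
Histogram of MP minus CT in log2(FPKM + 1) over 12828 genes (top) and the same difference for each of 19 inhibitors by family (bottom, 1 point a gene). The solid line is the median of all genes at -0.07 and the dotted lines mark 1.5-fold; SPINK9 lies at -1.35, and CST3 and SERPINA10 are the points right of 0.

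The summed FPKM of the 19 inhibitors was 1293 in MP and 1491 in CT, a ratio of 0.867. A pair of genes pulled that sum in opposite directions. CST3 supplied most of the cystatin share, which was 44.5% of the sum in MP and 32.0% in CT, and SPINK9 supplied 7.33% in MP and 16.3% in CT. Without these 2 genes the sum was 647 in MP and 799 in CT, a ratio of 0.810.

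**Figure D2:**
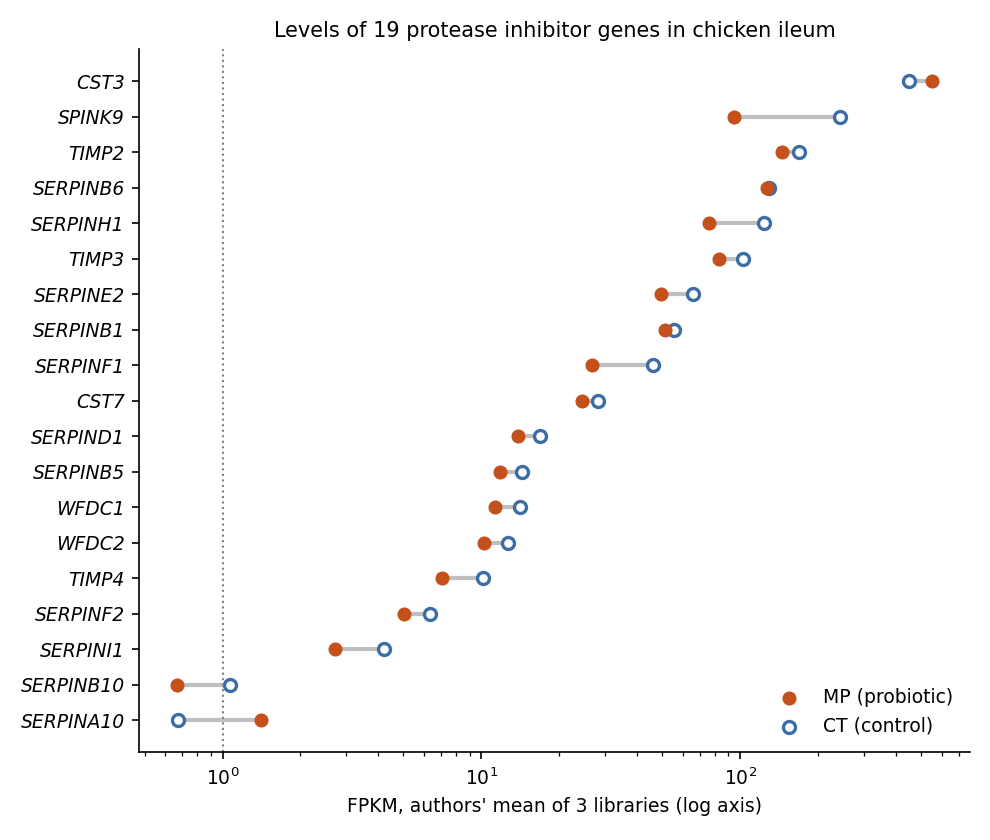
FPKM on a log axis for the 19 expressed inhibitors, ordered by their CT level; filled points are MP and open points CT, each a mean of 3 libraries made by the authors, and the dotted line is the minimum of 1. CST3 is the top gene in both groups, SPINK9 has rank 4 in MP and rank 2 in CT, and in 17 rows the filled point lies left of the open one.

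The Kazal family contributed 1 expressed gene, and it showed the widest difference of all the inhibitors. SPINK9 had an FPKM of 94.8 in MP and 243 in CT, a difference of -1.35 in log2. Its counts, summed over 3 libraries, were 4060 in MP and 10820 in CT. The depth-scaled count ratio of MP to CT was 0.404, with a 95% counting interval of 0.390 to 0.419. Only 0.109% of all genes lay lower. Past 1.5-fold lay 368 higher and 253 lower of all 12828 genes, and 272 and 213 of the 12022 with Ensembl identifiers. Assembled loci were thus past it more often than Ensembl genes, and SPINK9 was not ranked among them alone. SPINK9 is the assembled locus of the set: its symbol comes with a description that points to a turkey protein of Kazal type 6, it carries no Gene Ontology term, and the table gives it no position, so the name is a label and not an assignment to the human gene. SPINK6, a Kazal gene with an Ensembl identifier, had 0 counts in both groups, where 3 counts over a group would be 0.0628 CPM in MP and 0.0583 CPM in CT. SPINK4, which goblet cells of mammals secrete, was listed at FPKM 0.127 in MP and 0.12 in CT, from 3 counts in each group. Among goblet cell markers 3 of 7 rows were higher and 4 (57.1%) lower in MP, a share near the 62.2% of all genes. The median of the 7 rows was -0.28. Their summed FPKM was 4491 in MP and 5373 in CT. Muc2 fills a pair of the lower rows, both assembled loci, at 354 and 1916 in MP and 523 and 3033 in CT. Another lower row, TFF2, reached FPKM 1 in CT only. CLCA1 was higher, at 1424 in MP and 887 in CT (0.68). The part of these markers in the SPINK9 difference was not tested.

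The TIMP genes, inhibitors of matrix metalloproteases, were all lower in MP, against 62.2% of all genes. None of the 3 reached 1.5-fold, past which 1.97% of all genes were lower. TIMP2, which also helps to activate the gelatinase MMP2, had an FPKM of 145.7 in MP and 168 in CT, with a count ratio of 0.859 (counting interval 0.839 to 0.881). TIMP3, which binds to the matrix and restrains ADAM17, had 82.7 in MP and 102 in CT, a ratio of 0.807 (0.775 to 0.840). TIMP4 was the least abundant of them at 7.07 in MP and 10.2 in CT, and had the widest difference of the family at -0.47. Their summed FPKM was 236 in MP and 281 in CT.

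The WAP genes differed little from each other. WFDC1, known as ps20 and made by smooth muscle of the stroma in mammals, had an FPKM of 11.3 in MP and 14.1 in CT (-0.29). WFDC2, described in the table as like an epithelial WAP protein, had 10.3 in MP and 12.7 in CT (-0.28). Both count ratios lay under 1, and the interval of WFDC2 came close to it at 0.718 to 0.969, on 317 counts in MP and 409 in CT.

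The cystatins went apart. CST3, the secreted cystatin C that inhibits cathepsins outside cells, was the most abundant inhibitor in both groups, at FPKM 551 in MP and 449.6 in CT. Its difference was 0.29 in log2, with a count ratio of 1.22 (1.20 to 1.25), and 90.2% of all genes lay lower. CST7, the cystatin F of lymphocytes and myeloid cells that reaches lysosomes, had 24.5 in MP and 28.2 in CT (-0.19). CST3 is among the tenth of genes with the fewest counts per FPKM, a class of short transcripts whose median gene stood at 0.12. CST7, WFDC2 and SPINK9 belong to the same class and were lower.

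Serpins made up 15 of the 25 genes, and 11 of them were expressed. Of these 11, 10 were lower (9 with median-of-ratios scaling) and 1 higher in MP, and their summed FPKM was 366 in MP and 463 in CT. SERPINA10, the higher gene, reached FPKM 1 in MP only, and SERPINB10 in CT only. Of all genes 62.2% were lower as deposited, and 50% were higher with median-of-ratios scaling. The clades outside B stood further down than clade B, with a median of -0.41 over 7 genes against -0.19 over 4. Clade B serpins are mostly intracellular, and some of them protect cells from their own granule proteases. Most of the serpins of other clades expressed here are secreted or reside in the secretory pathway.

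On the log2(FPKM + 1) scale SERPINH1 and SERPINF1 stood furthest from CT among the serpins, and neither is an inhibitor in the usual sense. SERPINH1, the collagen chaperone HSP47 of the endoplasmic reticulum, had an FPKM of 75.6 in MP and 123 in CT. That is a difference of -0.70 in log2 and a count ratio of 0.606 (0.593 to 0.620). SERPINF1, the anti-angiogenic factor PEDF, had 26.7 in MP and 46.2 in CT, a difference of -0.77 and a count ratio of 0.580 (0.549 to 0.613). Of all genes, 1.11% lay lower than SERPINH1 and 0.717% lower than SERPINF1. SERPINH1 is in a class of long transcripts whose median gene stood at -0.12. SERPINE2, the protease nexin that traps thrombin and urokinase on the cell surface, had 49.5 in MP and 65.96 in CT (-0.41), with a count ratio of 0.756 (0.728 to 0.785).

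The genes of matrix and muscle cells were lower beside them. Of all genes 62.2% were lower, with a median of -0.07. All 11 fibroblast and matrix markers were lower in MP, with a median of -0.51 and a summed FPKM of 1148 in MP and 1596 in CT. The widest difference among them was that of POSTN, the matrix protein periostin, at FPKM 9.10 in MP and 17.5 in CT (-0.87). The collagen I genes, whose products SERPINH1 folds, were in the list too: COL1A1 had an FPKM of 85.0 in MP and 122 in CT, and COL1A2 had 85.7 in MP and 121 in CT. The 9 smooth muscle markers were lower too (8 with median-of-ratios scaling), with a median of -0.44 and a summed FPKM of 2498 in MP and 3653 in CT, and so were all 10 endothelial markers (median -0.25, sum 133 in MP and 160.0 in CT) and all 7 adipocyte markers (median -0.75, sum 272 in MP and 436 in CT). Median-of-ratios scaling moved the median gene up by 0.07, so that 50% of all genes were higher. It left the fibroblast, endothelial and adipocyte markers lower. Fewer cells of a type and less RNA per cell cannot be told apart in whole tissue. The part of these cell types in the differences of SERPINH1, SERPINF1, SERPINE2, the TIMP genes and WFDC1 was not tested.

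**Figure D3:**
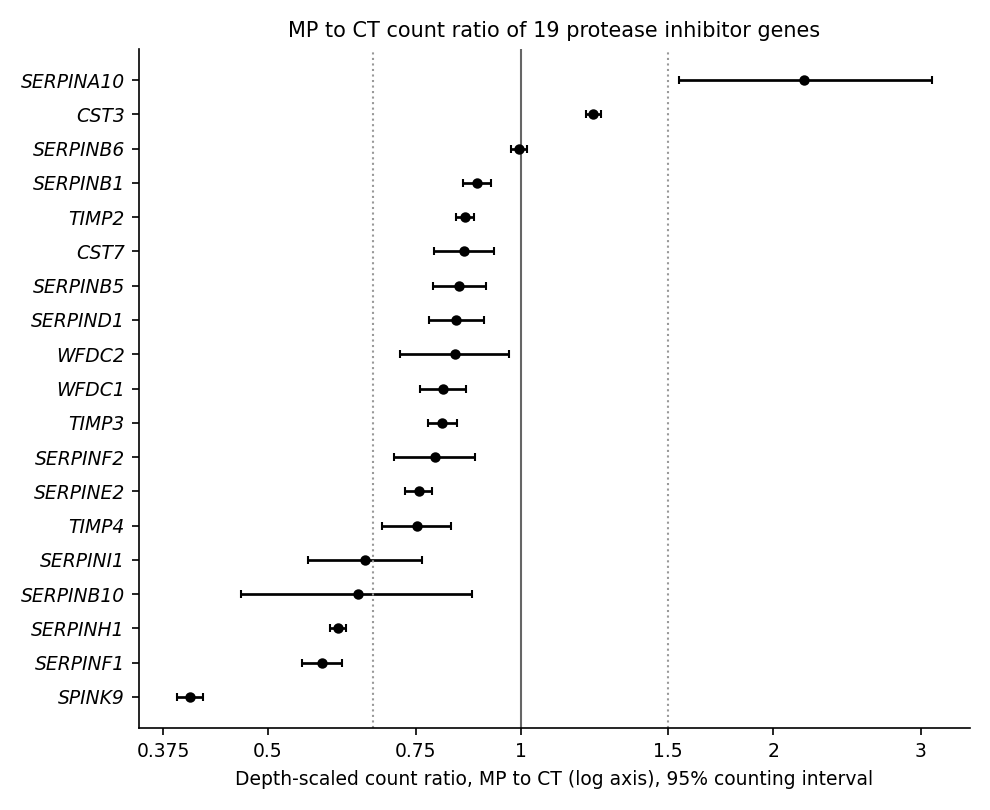
Depth-scaled count ratio of MP to CT for each of the 19 inhibitors on a log axis, with the exact 95% interval, which covers counting error and not the variation between birds. The solid line is equality and the dotted lines 1.5-fold; 16 intervals lie below 1, 2 above it (CST3 and SERPINA10), and that of SERPINB6 holds 1.

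Counting error was small beside most of these differences. The interval lay below 1 for 16 inhibitors and above 1 for 2, and held 1 for SERPINB6. Over all genes the interval lay below 1 for 43.3% and above 1 for 23.6%, so at this depth most genes are separated in this sense.

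A group of serpins known chiefly as plasma proteins of the liver had modest levels in the ileum. SERPIND1, the heparin cofactor that inhibits thrombin, had an FPKM of 13.9 in MP and 16.8 in CT (-0.26). SERPINF2, the plasmin inhibitor, had 5.04 in MP and 6.35 in CT (-0.28). SERPINA10, the protein Z-dependent inhibitor of factor Xa, was the other inhibitor that was higher, at 1.41 in MP and 0.67 in CT, a difference of 0.53. It rests on 105 counts in MP and 52 in CT, and its ratio of 2.17 has a wide counting interval of 1.55 to 3.09. SERPINA10 reached FPKM 1 in MP only, so the minimum fixed its direction. SERPINC1, antithrombin, was below the minimum at 0.287 in MP and 0.233 in CT. Of 12 liver markers 11 were in the table and 3 reached FPKM 1, and summed over those 3 the FPKM was 183 in MP and 167 in CT, most of it from CYP2C23b at 151 in MP and 139 in CT. FGG, a fibrinogen chain, had 11.2 in MP and 2.19 in CT, a difference of 1.94 and the 1 liver marker past 2-fold, with a count ratio of 5.05 (4.40 to 5.81). The third expressed marker, TF, the iron carrier transferrin, had 20.7 in MP and 25.9 in CT (-0.31). FGB, another fibrinogen chain, was below the minimum at 0.58 in MP and 0.277 in CT. The defining liver gene ALB was at 0.17 in MP and 0.32 in CT, and AHSG and RBP4 were at 0 in both. The part of these markers in the serpin values was not tested.

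SERPINI1, the neuroserpin of nerve cells that inhibits tissue plasminogen activator, had 2.71 in MP and 4.21 in CT (-0.49).

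SERPINF2 and SERPINF1 lie close together in the chicken genome, with 1 protein gene, SMYD4, between them in RefSeq's order of assembly GRCg7b. Their levels differed widely all the same, with SERPINF1 at 26.7 against 5.04 for SERPINF2 in MP and at 46.2 against 6.35 in CT. CST3 and CST7 are likewise separated by 1 gene, SYNDIG1, and differed in direction.

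Among the expressed serpins, SERPINB6, SERPINB1 and SERPINB5 of clade B differed least, although SERPINB5 (-0.259) was close to SERPIND1 of another clade (-0.264). The other expressed clade B gene, the row labelled SERPINB10, differed more. Its difference was -0.31, with a count ratio of 0.640 (0.465 to 0.876). SERPINB6, a cytosolic serpin that inhibits cathepsin G in mammals, had the least difference of the 19, at FPKM 127 in MP and 129 in CT (-0.02), and its sign turned to 0.06 with median-of-ratios scaling. Its count ratio was 0.995 (0.973 to 1.02). SERPINB1, the leukocyte elastase inhibitor, had 51.0 in MP and 55.5 in CT (-0.12), a ratio of 0.888 (0.855 to 0.923). SERPINB5, the epithelial serpin maspin, had 11.8 in MP and 14.4 in CT (-0.26).

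The row labelled SERPINB10 carries the identifier and description of SERPINB2, the intracellular inhibitor of urokinase, and stood just inside the minimum at FPKM 0.667 in MP and 1.07 in CT, from 66 counts in MP and 111 in CT. SERPINA10 and SERPINI1 were the next above that minimum. Just outside it were SERPINB10B, at 0.19 in MP and 0.38 in CT, then SERPINC1 and SPINK4. SERPINB10B is the chicken protein MENT, which condenses chromatin in mature blood cells. The row labelled SERPINB11, which RefSeq calls SERPINB12, had 0.043 in MP and 0.02 in CT, and SERPINE3 had 0 counts in both.

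In RefSeq's order the clade B genes form an unbroken row of 10 protein genes from SERPINB1 to SERPINB5, and all 10 were found in the table. The row holds ovalbumin, the storage serpin of egg white, and its relatives OVALY and OVALX, which the naming rule leaves out. Expression sat at its ends: SERPINB1 and SERPINB6 at one end and SERPINB5 at the other. The 6 genes below FPKM 1 in both groups all lay inside, with levels up to 0.19 in MP and 0.38 in CT, and the row labelled SERPINB10 was the interior gene that reached the minimum.

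**Figure D4:**
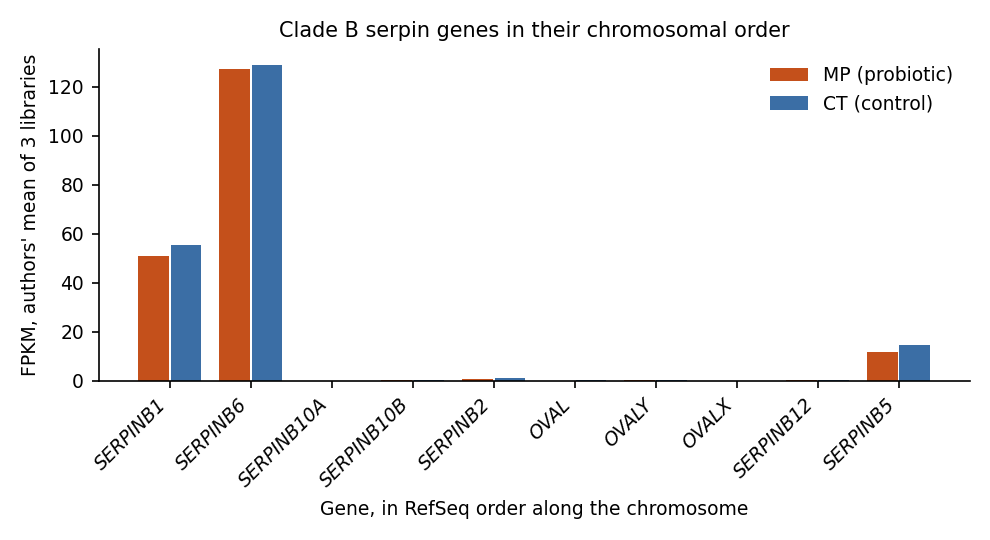
FPKM of the 10 clade B serpin genes, named and ordered as in RefSeq (SERPINB2 is the row labelled SERPINB10 and SERPINB12 the row labelled SERPINB11); left bars are MP and right bars CT. SERPINB1, SERPINB6 and SERPINB5 stand at the ends of the row, and the genes between them are near 0.

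Lists of proteases and related proteins, not all of them targets of these inhibitors, were counted in the same way. Each count as deposited stands against the 62.2% of all genes that were lower, the 37.7% that were higher and the median of -0.07. With median-of-ratios scaling 50% of all genes were higher, and with equal FPKM totals 30.1%. Each count past 1.5-fold as deposited stands against the 1.97% of all genes that were lower past it and the 2.87% that were higher. Of 22 expressed matrix metalloproteases and ADAM proteases 14 (63.6%) were lower and 8 higher in MP (median -0.17), a share near that of all genes. Past 1.5-fold lay 2 of them on the lower side and 1 on the higher, where 1.97% and 2.87% of all genes lay. The split was 13 and 9 with median-of-ratios scaling and 16 and 6 with equal FPKM totals. MMP2, the gelatinase that TIMP2 binds, had an FPKM of 79.3 in MP and 105 in CT (-0.40), ADAMTS2, which trims procollagen, had 7.63 in MP and 11.3 in CT (-0.51), and MMP11, a stromal member of the family, had 5.67 in MP and 8.22 in CT (-0.47). Past 1.5-fold were MMP1, a collagenase, at 0.923 in MP and 4.15 in CT, ADAMTS5, an aggrecan-degrading protease, at 0.98 in MP and 1.99 in CT, and MMP7, an epithelial metalloprotease, at 2.46 in MP and 0.577 in CT. These 3 are low genes named after their values were seen. Each reached FPKM 1 only in the group where it was higher, which the minimum in either group favours. Their count is therefore no result about metalloproteases.

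Cathepsins and legumain, most of them targets of cystatins, were higher for 7 of 11 genes (median 0.12), with 1 lower past 1.5-fold and 0 with median-of-ratios scaling. That gene was CTSC, the activator of granule proteases that cystatin F controls, at FPKM 64.7 in MP and 99.7 in CT (-0.62). LGMN, the lysosomal protease legumain, was lower as well at 223 in MP and 278 in CT (-0.32), and so were CTSV (72.8 in MP and 85.9 in CT, -0.24) and CTSA (-0.05, above 0 with median-of-ratios scaling). Among the higher genes were CTSH, with 167 in MP and 134 in CT (0.32), and CTSZ, with 279 in MP and 228 in CT (0.29). The 9 markers of T and natural killer cells, cells known to make CST7, were all lower, against 62.2% of all genes. Their median was -0.27, and their summed FPKM 562 in MP and 672 in CT. The part of these markers in the CST7 and CTSC values was not tested. Among 7 heterophil and macrophage markers 5 were lower and 2 higher (median -0.12, sum 194 in MP and 204 in CT).

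Clotting factors and their regulators were lower for 6 of 8 genes (75%, against 62.2% of all genes), with a median of -0.27. Past 1.5-fold 2 were lower (1 with median-of-ratios scaling) and 0 higher, where 1.97% and 2.87% of all genes lay. PROS1, the anticoagulant protein S, had an FPKM of 33.2 in MP and 55.8 in CT (-0.73), and PROCR, the endothelial receptor of protein C, had 13.9 in MP and 18.3 in CT (-0.37). F2, the thrombin gene that SERPIND1 and SERPINE2 act against, had 32.1 in MP and 34 in CT (-0.08). The other of the 2 was F13A1, the transglutaminase that links fibrin, at 1.24 in MP and 2.43 in CT; F13A1 was named after its values were seen. Of the plasminogen activators, PLAU had 52.2 in MP and 49.8 in CT (0.07) and PLAT, the target of SERPINI1, had 4.84 in MP and 7.02 in CT (-0.46); the 3 other genes of that list that were in the table were below FPKM 1. Of 3 thrombocyte markers at the minimum 2 were lower and 1 higher (median -0.26, sum 9.60 in MP and 10.6 in CT). F13A1 is in this list too and was 1 of the 2 lower markers.

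A list of serine proteases drawn up as epithelial, which also holds the secreted HTRA1, HTRA3 and PRSS23, stood with all genes. As deposited 7 of 11 (63.6%) were lower, with a median of -0.06. With median-of-ratios scaling, which turned ST14 and TMPRSS2, 5 of 11 were lower. HTRA1 is counted among the proteins with Kazal-like domains as well. HTRA3, a secreted serine protease, had an FPKM of 12.6 in MP and 15.99 in CT (-0.33), its relative HTRA1 had 116 in MP and 132 in CT (-0.18), and PRSS23 had 42.3 in MP and 47.2 in CT (-0.15). ST14, the membrane protease matriptase, had 206 in MP and 213 in CT (-0.05). On the higher side 1 gene was past 1.5-fold and on the lower side 0. That gene was TMPRSS15, the enteropeptidase of the upper gut that activates trypsinogen, at 3.43 in MP and 0.56 in CT. TMPRSS15 was named after its values were seen, and it reached FPKM 1 only in MP, where it was higher. The absorptive enterocyte markers went both ways, with 7 of 10 higher and a median of 0.08. With median-of-ratios scaling 8 were higher, and with equal FPKM totals 5. Their summed FPKM was 9354 in MP and 9758 in CT, of which FABP6 held 2669 in MP and 4081 in CT. Past 1.5-fold 2 were higher (APOA4 and APOA1) and 2 lower (SLC15A1 and FABP6), where 2.87% and 1.97% of all genes lay. With median-of-ratios scaling 1 was lower past it. None of the 12 pancreatic digestive proteases and enzymes in the table, nor of the 8 acinar markers, reached FPKM 1. The acinar markers are mostly genes of that same pancreatic list. A pair of genes from the list of leukocyte granule proteases reached the minimum. GZMA, the granzyme A of cytotoxic cells, had 179 in MP and 180 in CT (-0.00, above 0 with median-of-ratios scaling), and CFD, the complement protease factor D, had 1402 in MP and 1248 in CT (0.17).

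Genes of a broader list of inhibitors and related proteins, which the naming rule leaves out, were lower about as often as all genes. Of 15 expressed genes of that list 9 (60%) were lower, against 62.2% of all genes, and 6 higher in MP (median -0.11). With equal FPKM totals 11 were lower and 4 higher, where 30.1% of all genes were higher. Past 1.5-fold 0 were higher and 1 gene was lower (0 with median-of-ratios scaling). ITIH5, a hyaluronan-binding heavy chain, was that gene, at FPKM 17.2 in MP and 27.4 in CT (-0.64). The cytosolic cystatins CSTA and CSTB were on the other side, CSTA at 10.5 in MP and 7.48 in CT (0.44) and CSTB at 28.4 in MP and 23.1 in CT (0.29). BIRC5, survivin, had 21.6 in MP and 28.2 in CT (-0.37). Other proteins known for Kazal-like domains, a mix of matrix, secreted and membrane proteins, were lower for 11 of 16 (68.75%, median -0.17), and 0 reached 1.5-fold. FSTL1 had 48.1 in MP and 69.3 in CT (-0.52) and SPARC, the matrix glycoprotein osteonectin, had 388 in MP and 520 in CT (-0.42). The membrane protein TMEFF2 had 6.61 in MP and 8.90 in CT (-0.38), and the prostaglandin transporter SLCO2A1 had 18.9 in MP and 23.4 in CT (-0.29).

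**Figure D5:**
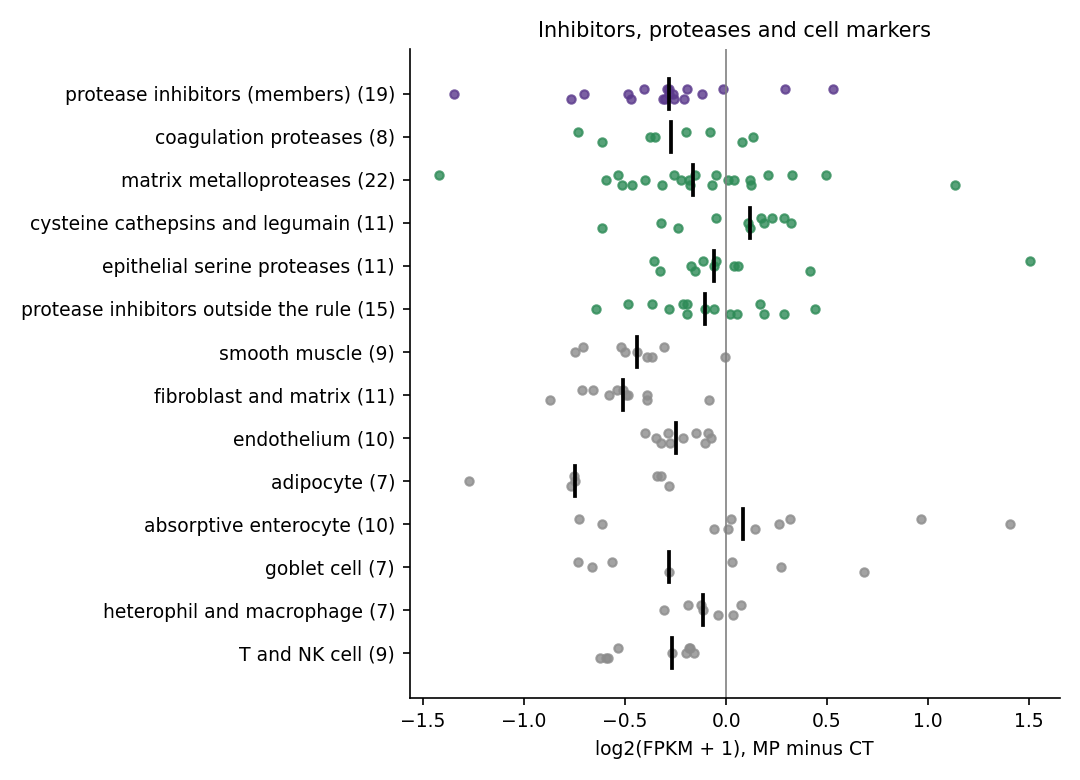
MP minus CT in log2(FPKM + 1) for each gene (points) and the median (bars) of the inhibitors, of proteases and other inhibitors, and of cell markers, with the number of genes in brackets. The median is -0.28 for the 19 inhibitors, -0.51 for fibroblast and matrix markers and 0.12 for cathepsins and legumain; lists with fewer than 5 expressed genes and the proteins with Kazal-like domains are left out.

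Of the 25 genes, 23 carry a Gene Ontology term for peptidase inhibitor activity in the table and 22 a term for an extracellular place. Of the 23 genes with an NCBI gene number, all were found in the RefSeq table, and 3 have another symbol there: the rows labelled SERPINB10 and SERPINB11, and WFDC2, whose number RefSeq lists under a placeholder while another number holds its WFDC2.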

How the data were processed

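RNA sequencing of ileum from 3 MP and 3 CT birds was analysed. Per the labels' protocols, the libraries were made with a kit described as one for small RNA. The authors deposited, per the file headers, a mean FPKM and a mean estimated count per gene and group. The third decimal of the FPKM was 0, 3 or 7 for 100% of values in both groups, which fits means of 3. Tools named in the submitters' processing notes, without roles, are HISAT2, StringTie 1.3.1, Bowtie2, DESeq2 and fastp 0.18.0; the genome build was not given in the sources used here. Another 4 columns of values, which match no sample, were left out.

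Differences are MP minus CT in log2(FPKM + 1), which understates low genes; genes needed an FPKM of 1 in either group. For count ratios, mean counts were multiplied by 3, rounded, and divided by the depth ratio of 0.929; the exact 95% Clopper-Pearson interval, conditional on both counts, covers counting error only, since reads without molecular identifiers are not independent molecules. Members were named at that minimum, and other genes from lists, up to 4 each among those at FPKM 5 with the largest differences; COL1A1, COL1A2, ST14, CTSV, CTSA, FGB, ALB, AHSG, RBP4 and those so marked in the text were added after their values were seen. Members and lists were chosen with earlier results of these data known. Steps were tested on simulated data (Python 3.11.15, scipy 1.17.1). RefSeq GRCg7b gave names and gene order only.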

Additional observations from a re-analysis of the deposited data

How the results depend on the processing

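No paired analysis was possible because each column is a group mean; leaving out replicates was not run for the same reason. The median of the inhibitors stayed between -0.34 and -0.22 over the 7 alternatives, and SPINK9, SERPINF1 and SERPINH1 were past 1.5-fold under each of 5 settings of scale and pseudocount. With a pseudocount of 0.1, 5 inhibitors were lower past 1.5-fold and 1 higher (SERPINA10, 0.97 in log2), the added ones being SERPINI1 (-0.61) and SERPINB10 (-0.61), all low genes. With CPM in place of FPKM 1 was higher (SERPINA10, 0.67). At a minimum FPKM of 5, where fewer genes enter, 1 inhibitor was higher at any size, and without a filter 5 of 25 were. At a threshold of 2-fold 1 was lower. Of the recomputed differences of single inhibitors 60 moved by less than the counting error, 16 by more and 0 of those past 1.5-fold changed sign; SERPINB6, close to 0, turned with median-of-ratios scaling (0.06). Over all 12828 genes, 253 were lower and 368 higher past 1.5-fold as deposited. With a pseudocount of 0.1 528 were lower and 510 higher, and with CPM 330 were lower and 381 higher. At a minimum FPKM of 5, 152 of 9913 genes were lower and 254 higher. With Ensembl genes only, which leaves out SPINK9, 213 of 12022 genes were lower and 272 higher. In that setting 2 of 18 inhibitors were lower past 1.5-fold. Depth limits SERPINA10, SERPINB10 and the genes below the minimum.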

Other observations

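Genes described as serpins, as inhibitors of serine proteases or as kin of ovalbumin that neither the naming rule nor the lists take in were looked up by description after the values had been seen. Of 15 such genes 4 reached FPKM 1, and 3 of the 4 were higher in MP, against 37.7% of all genes. The differences of these 3 were small, at 0.20 or less, and 4 genes are too few to read as a set. SPIK5, the Kazal type 5 gene that RefSeq also lists as ovoinhibitor, was the exception, at FPKM 5.31 in MP and 7.997 in CT (-0.51), with a count ratio of 0.661 (counting interval 0.584 to 0.747). SPIA1, described as a clade A serpin of the antitrypsin kind, had 9.46 in MP and 8.46 in CT (0.15). A gene without a symbol, described as a Kunitz type 1 inhibitor of serine proteases, was abundant, at 145 in MP and 126 in CT (0.20). Another, described as a Kazal type 2 inhibitor, had 13.6 in MP and 13.2 in CT (0.04). The Kazal genes at the minimum therefore covered a difference of -1.35 for SPINK9, -0.51 for SPIK5 and 0.04 for the type 2 gene.

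Genes that carry a Gene Ontology term for peptidase inhibitor activity but are outside the naming rule numbered 93, of which 48 reached FPKM 1. Of these 33 (68.75%) were lower, against 62.2% of all genes, and 15 higher in MP, with a median of -0.12. Past 1.5-fold 2 were lower and 0 higher, where 1.97% and 2.87% of all genes lay. This set overlaps the broader list of inhibitors above: its lowest and highest differences are those of ITIH5 (-0.64) and CSTA (0.44). The 19 named inhibitors had a median of -0.28 beside it; the difference between these sets was not tested.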
